A study of Homo sapiens with 2 samples.

Results

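Collagen chain genes encode the subunits of collagens, the main structural proteins outside cells. The set was every protein-coding gene of GENCODE release 44 named COL, a type number, A and a chain number, without COL17A1, matched by Ensembl identifier in both count tables. It held 43 genes of the 58735 in the tables, made up of 11 fibrillar chains, 6 basement membrane chains (COL4A1 to COL4A6) and 26 chains of other types. Both libraries came from matched polyadenylated RNA of MCF10a-Snail-ER cells, a derivative of the non-tumorigenic human mammary epithelial line MCF10a. These cells stably carry the repressor Snail (gene SNAI1) fused to the estrogen receptor (gene ESR1), and had been kept in 100 nM tamoxifen for 1 day, in medium with 5% horse serum, to start an epithelial-to-mesenchymal transition. Native RNA strands were read from the polyA end on an Oxford Nanopore MinION with a direct RNA kit. A TruSeq stranded mRNA library, which holds short pieces of amplified cDNA, was read by Illumina. There was 1 library per platform, from 1 line, with no replicate, no untreated cells and no parental MCF10a cells, so every value compares these 2 libraries and every interval and p-value covers counting error only. No value shows what tamoxifen or Snail changed.

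Each collagen is built of chains that wind around each other over stretches in which glycine recurs at a fixed spacing, since only glycine fits inside the helix. Fibrillar collagens have a long unbroken helix and pack into the fibrils of connective tissue, which fibroblasts mainly make. The type IV chains have helices with many breaks and form the sheet-like network of basement membranes, on which epithelial cells sit. Chains of type IV assemble in fixed partnerships, COL4A1 with COL4A2, COL4A3 with COL4A4 and COL4A5, and COL4A5 with COL4A6. Their genes lie in pairs that are read in opposite directions from a shared start region. Among the other types, type VI forms beaded filaments, type VII the anchoring fibrils that fasten skin-like epithelia to the tissue below, and type VIII a short-chain network. FACIT collagens attach to the surface of fibrils.

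The spacing can be read in the coding sequence, where every glycine codon is GGN. Below are 54 coding bases each of 4 genes, shown because they carry the repeat that defines the family in a fibrillar chain, an anchoring fibril chain and 2 basement membrane chains. Capitals mark GGN codons. The stretches are in coding direction, from the GENCODE canonical transcripts on hg38, at chr19:9986369-9986422 (coding exon 30 of 67, minus strand) for COL5A3, chr3:48575402-48575455 (coding exon 73 of 118, minus strand) for COL7A1, chr13:110480228-110480281 (coding exon 30 of 47, plus strand) for COL4A2 and chrX:108178784-108178837 (coding exon 27 of 45, minus strand) for COL4A6.
COL5A3: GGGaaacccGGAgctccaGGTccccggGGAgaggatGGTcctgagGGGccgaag
COL7A1: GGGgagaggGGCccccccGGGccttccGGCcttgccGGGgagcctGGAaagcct
COL4A2: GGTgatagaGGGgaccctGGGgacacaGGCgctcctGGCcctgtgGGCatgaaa
COL4A6: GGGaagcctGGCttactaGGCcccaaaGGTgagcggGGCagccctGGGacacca
In each of the 4 stretches, 6 GGN codons stand with 2 other codons between neighbours. The longest such run without a break differed by type. It held a median of 338 GGN codons in the 11 fibrillar chains (range 216 to 343, with COL24A1 at 216 and COL27A1 at 217), but 38 to 66 in the 6 basement membrane chains, with COL4A2 at 66. In the 26 other chains it held 23 to 113, with COL7A1 at 75 and with COL9A1, COL9A2, COL9A3, COL21A1 and COL22A1 all at 113. Exon sizes differed by type as well. Of the inner coding exons, 84.2% in fibrillar genes (528 of 627) were a multiple of 9 bases long, against 47.9% in basement membrane genes (136 of 284). In genes of other types the share was 56.0% (531 of 949). Exons of exactly 54 bases made up 48.6% of inner coding exons in fibrillar genes (305), 4.23% in basement membrane genes (12) and 16.2% in genes of other types (154). COL7A1, with 116 inner coding exons, had 27 of 36 bases.

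**Figure D1:**
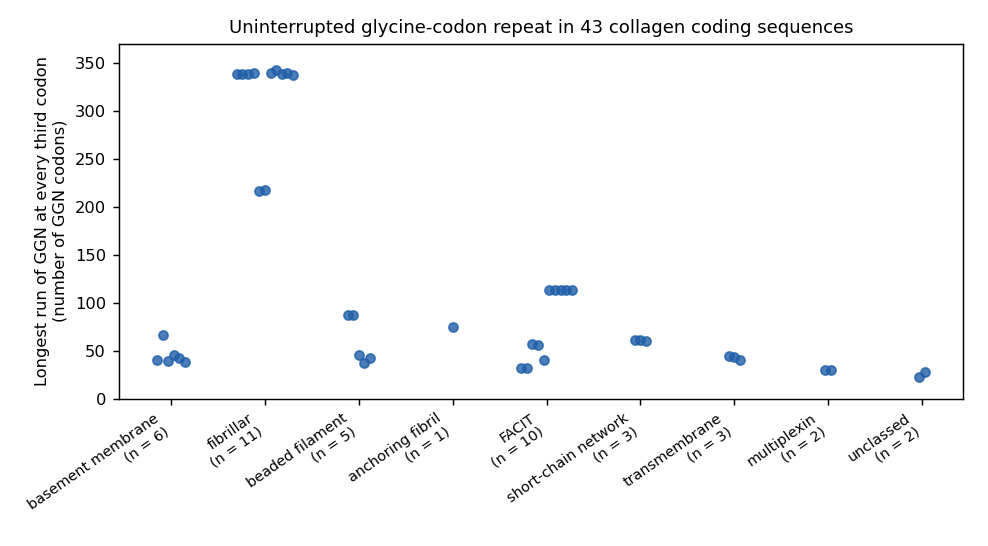
Longest unbroken run of GGN codons at a spacing of 3 codons (y axis, number of GGN codons) in the canonical coding sequence of each of the 43 collagen chain genes, by type (x axis); each point is 1 gene. Of the fibrillar points 9 lie near 338 and 2 near 216, while no basement membrane point is above 66.

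The head-to-head starts were also read. In 3 pairs, collagen genes start within 2000 bases of each other and point apart. The 3 sequences below are the stretches between the RefSeq starts (GRCh38.p14) that hold no annotated exon base, cut at 250 bases before the plus-strand start. They are shown because the results below compare the genes on either side. They lie at chr13:110307158-110307257, chr2:227164454-227164623 and chrX:108439588-108439837, on the plus strand, and capitals mark motif letters.
COL4A1 and COL4A2: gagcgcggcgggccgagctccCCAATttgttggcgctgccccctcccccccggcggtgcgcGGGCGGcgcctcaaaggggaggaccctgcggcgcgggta
COL4A4 and COL4A3: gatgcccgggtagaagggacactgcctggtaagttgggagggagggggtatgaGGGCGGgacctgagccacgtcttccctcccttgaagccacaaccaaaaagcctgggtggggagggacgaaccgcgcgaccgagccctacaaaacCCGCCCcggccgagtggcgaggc
COL4A6 and COL4A5: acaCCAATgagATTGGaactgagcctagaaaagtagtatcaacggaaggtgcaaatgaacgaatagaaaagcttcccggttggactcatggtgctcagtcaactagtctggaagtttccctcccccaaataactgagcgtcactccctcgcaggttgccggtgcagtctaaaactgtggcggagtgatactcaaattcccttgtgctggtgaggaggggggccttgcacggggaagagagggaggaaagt
The RefSeq starts of COL4A1 and COL4A2 were 126 bases apart, those of COL4A4 and COL4A3 418, and those of COL4A6 and COL4A5 379. The motifs searched, on both strands, were the CCAAT box (CCAAT), the GC box (GGGCGG), the TATA box (TATAAA) and the E-box bound by Snail (CAGGTG). The COL4A1 and COL4A2 stretch held 1 CCAAT box and 1 GC box at a GC content of 78.0%. The COL4A4 and COL4A3 stretch held 2 GC boxes at 65.9% GC, and the COL4A6 and COL4A5 stretch 2 CCAAT boxes at 51.2% GC. None of the 3 stretches, each of which leaves out part of the bases between the starts, held the letters of the TATA box or the E-box. Over 300-base RefSeq promoter windows (250 before and 50 after a start), the Snail E-box letters stood in 20.6% of all 35116 windows and in 11.6% of the 43 windows of 31 collagen genes. The 5 genes with it were COL16A1, COL4A3, COL4A4, COL9A2 and COL8A2. For COL4A3 and COL4A4 the letters lie outside the stretch shown, which covers 170 of the 418 bases between their starts. The windows of these neighbours overlap, and whether both hold the same site was not examined. The corresponding shares were 34.6% and 30.2% for the CCAAT box, 45.0% and 55.8% for the GC box, and 11.5% and 16.3% for the TATA box. A match of so few letters describes the window and shows no binding.

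The libraries summed to 403235 counts for Nanopore and 191741714 for Illumina, which is 476 times as many. A single count was 2.48 CPM (counts over the library total, times 1000000) by Nanopore and 0.00522 CPM by Illumina, and 3 counts, taken as the least that can be told from 0, were 7.44 and 0.0156 CPM. All 9 markers of basal mammary epithelium had counts in both libraries, at a sum of 3762 CPM by Nanopore and 4190 CPM by Illumina. Of 7 fibroblast markers, 1 had Nanopore counts and 6 had Illumina counts, with sums of 24.8 and 35.9 CPM. That 1 was DCN, at 10 Nanopore counts and 5075 Illumina counts, while DPT was at 0 in both. Endothelial and leukocyte markers summed to 6.85 and 3.61 CPM by Illumina. In bulk RNA, few cells with much of a transcript and many cells with little cannot be told apart, and the part of other cells in the collagen values was not tested. The genes in the fusion were both present, SNAI1 at 709 CPM by Nanopore and 860 CPM by Illumina, and ESR1 at 965 and 143 CPM.

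Taken as a group, the basement membrane chains had the largest share of the set in both libraries, and the fibrillar chains were scarce. Not every type IV chain was high. COL4A3 and COL4A4 had no Nanopore count, and COL4A6 had 6, fewer than COL8A1 (10) and COL6A1 (8). COL17A1, which the rule left out, is not in these shares. It had 36 Nanopore and 41413 Illumina counts, more than any of the 43 chains. The 4 chains COL4A1, COL4A2, COL4A5 and COL4A6 took 44 of the 77 Nanopore counts on collagen chain genes (57.1%, exact Clopper-Pearson 95% interval 45.4 to 68.4). A Nanopore read stands for 1 RNA strand, so its counts were not divided by length. In the Illumina library, where long genes give more reads, levels of different genes were compared per base of the canonical transcript and scaled to a sum of 1000000 (TPM). On that scale the type IV chains made up 67.2% of the collagen level. The share was 59.4% when counts were divided by the union of all exons and 68.6% by the mean transcript length. The 11 fibrillar chains together had 2 Nanopore counts (2.60%, interval 0.316 to 9.07) and 3.94% of the Illumina level by canonical length. The 26 other chains had 31 Nanopore counts (40.3%, interval 29.2 to 52.1) and 28.8% of that Illumina level. Their Nanopore interval overlapped that of the type IV chains. All 43 genes summed to 191 CPM by Nanopore (interval 150.7 to 238.7) and 483.8 CPM by Illumina.

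**Figure D2:**
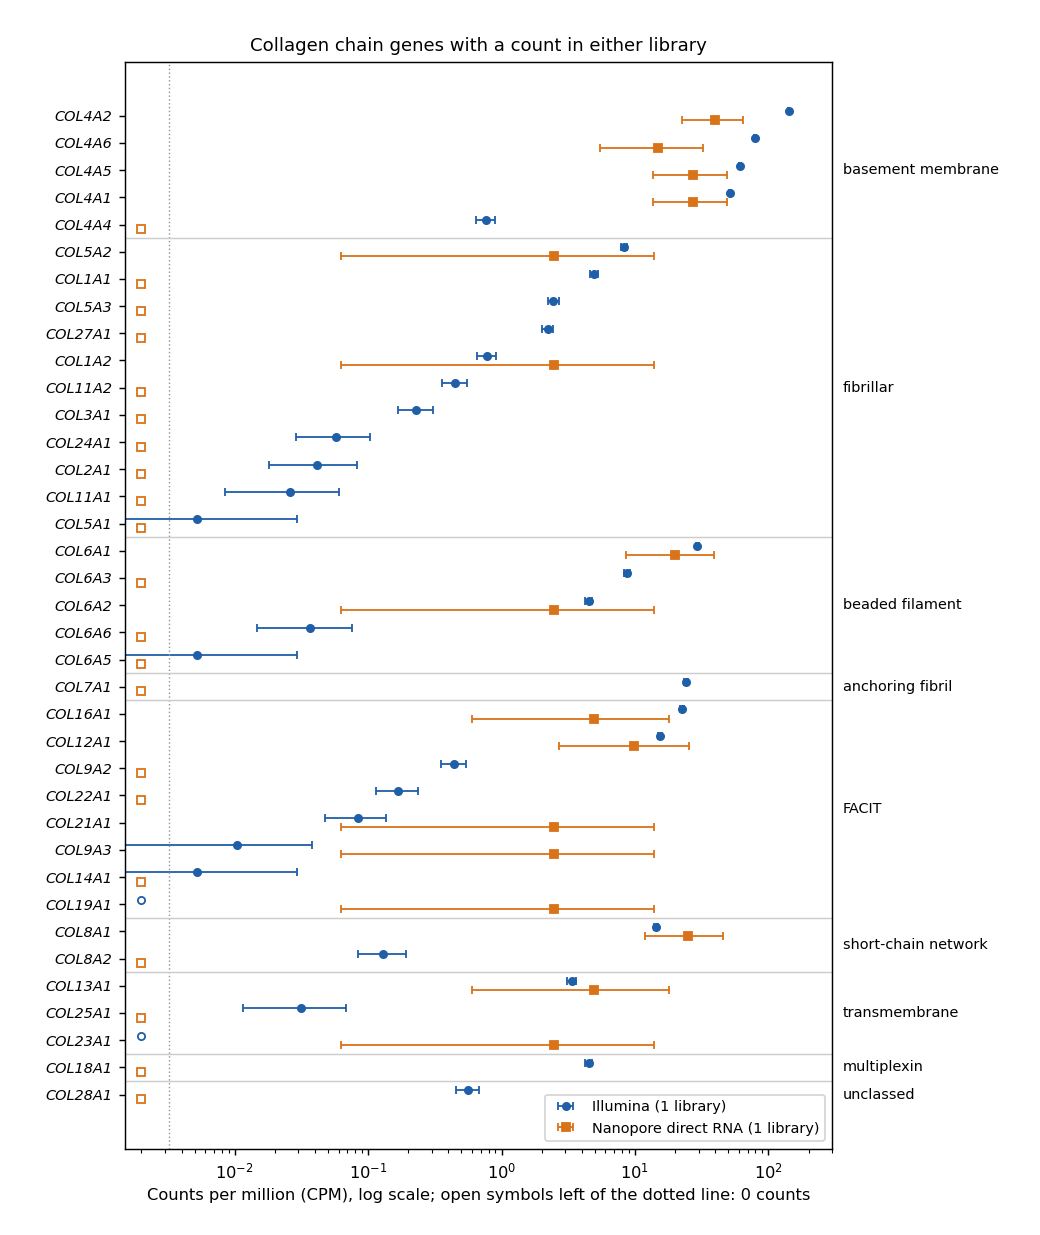
Level of each collagen chain gene with a count in either library, in CPM on a log axis, by type (labels at right); circles are Illumina and squares Nanopore, each 1 library, with exact 95% intervals of counting error, which reach beyond the left edge for genes with 1 or 2 Illumina counts. Open symbols left of the dotted line stand for 0 counts; the Nanopore squares at 14.9 CPM or above are those of COL4A1, COL4A2, COL4A5, COL4A6, COL6A1 and COL8A1.

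Of the 43 chains, COL4A2 (chr13:110305812-110513209, plus strand, ENSG00000134871), the partner of COL4A1 in most basement membranes, had the most counts on both platforms. Among the 43 it also had the highest Illumina level per length, except by union exonic length. It had 16 Nanopore counts, or 39.7 CPM (interval 22.7 to 64.4), and 27249 Illumina counts, or 142 CPM, which was 34.2 TPM by canonical length. COL4A1 (chr13:110148963-110307157, minus strand, ENSG00000187498) had 11 Nanopore counts, or 27.3 CPM (interval 13.6 to 48.8), and 9919 Illumina counts, or 51.7 CPM and 12.3 TPM. COL4A5 (chrX:108439838-108697545, plus strand, ENSG00000188153), mutated in Alport kidney disease, had the same 11 Nanopore counts as COL4A1 and 11817 Illumina counts, or 61.6 CPM and 14.6 TPM. COL4A6 (chrX:108155607-108439497, minus strand, ENSG00000197565), the partner of COL4A5 in the basement membrane under some epithelia, had 6 Nanopore counts, or 14.9 CPM (interval 5.46 to 32.4), and 15306 Illumina counts, or 79.8 CPM and 18.5 TPM. The Nanopore intervals of these 4 genes overlapped one another, so that library gives no order among them. The Illumina order depended on the length used. COL4A6 was second by canonical length and CPM, first by union exonic length (23.3 TPM, against 20.0 for COL4A2) and below COL4A2, COL4A1, COL4A5 and COL6A1 by mean transcript length. COL4A3 and COL4A4, the chains typical of kidney and lung basement membranes, had no Nanopore count. COL4A3 was at 0 in the Illumina library too, where 3 counts would have been 0.0156 CPM, and COL4A4 had 146 Illumina counts, or 0.761 CPM.

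COL6A1 (chr21:45981770-46005050, plus strand, ENSG00000142156), a chain of the type VI beaded filament, was the only other of the 43 chains above 10 TPM by canonical length. It had 8 Nanopore counts, or 19.8 CPM (interval 8.57 to 39.1), and 5607 Illumina counts, or 29.2 CPM and 10.8 TPM. Its usual partners COL6A2 and COL6A3 were far lower by Illumina, at 2.02 and 1.29 TPM, with 1 and 0 Nanopore counts. COL16A1 (chr1:31652263-31704319, minus strand, ENSG00000084636), a FACIT collagen, had 2 Nanopore counts, or 4.96 CPM, and 4326 Illumina counts, or 22.6 CPM and 6.45 TPM. COL12A1 (chr6:75084326-75206267, minus strand, ENSG00000111799), another FACIT collagen, had 4 Nanopore counts, or 9.92 CPM, and 2941 Illumina counts, or 15.3 CPM and 2.03 TPM. COL8A1 (chr3:99638475-99799226, plus strand, ENSG00000144810), a short-chain collagen found beneath endothelia and in vessel walls, had 10 Nanopore counts, or 24.8 CPM (interval 11.9 to 45.6), and 2758 Illumina counts, or 14.4 CPM and 4.04 TPM. COL7A1 (chr3:48564073-48595329, minus strand, ENSG00000114270), whose product forms the anchoring fibrils and which is mutated in dystrophic skin blistering, had 0 Nanopore counts and 4634 Illumina counts, or 24.2 CPM and 4.06 TPM. COL8A1 and COL7A1 thus had nearly the same Illumina level by canonical length, with 10 and 0 Nanopore counts. By union exonic length they were at 4.14 and 5.88 TPM, and by mean transcript length at 7.51 and 10.8 TPM.

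Of the fibrillar chains, COL5A2 (chr2:189031898-189225312, minus strand, ENSG00000204262), which helps to set the width of fibrils, had the highest Illumina level by canonical length, with 1 Nanopore count and 1589 Illumina counts, or 8.29 CPM and 1.88 TPM. By mean transcript length COL1A1 was above it, at 5.44 against 2.69 TPM. The chains of type I, the most abundant collagen of connective tissue, were low: COL1A1 had 0 Nanopore and 946 Illumina counts, and COL1A2 had 1 and 148. COL3A1, which accompanies type I in soft tissue, had 0 and 44. The remaining fibrillar genes had 0 Nanopore counts and between 1 (COL5A1) and 469 (COL5A3) Illumina counts. At 0 in both libraries were 6 chains, COL4A3, COL15A1, COL26A1, COL10A1, COL9A1 and COL20A1.

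The chains seen by Nanopore were mostly those high by Illumina. At least 1 Nanopore count was found for 16 of the 43 genes, at least 3 counts for 7 and at least 10 for 4 (COL4A1, COL4A2, COL4A5 and COL8A1), while 35 had an Illumina count. Of the 17 chains at 1 CPM or more by Illumina, 11 had a Nanopore count. Between 1 and 10 CPM, 3 of 8 chains had one (37.5%), against 69.5% of 2920 protein-coding genes. From 10 CPM to the level of COL4A2, 8 of 9 chains had one (88.9%), with COL7A1 the exception, against 98.0% of 8003 protein-coding genes. These bands use Illumina CPM undivided by length, and the protein-coding genes were not matched to the chains by length. The median exonic length of the 43 chains was 9091 bases. What part length has in these shares was not tested. The chains between 1 and 10 CPM without a Nanopore count were COL6A3, COL1A1, COL18A1, COL5A3 and COL27A1, for which equal CPM would have given 3.52, 1.99, 1.81, 0.986 and 0.896 Nanopore counts. Below 1 CPM, 5 of 26 chains had a Nanopore count, against 8.92% of 7722 protein-coding genes. Each of the 5 had a single count, and 2 of these, COL19A1 and COL23A1, had no Illumina count. Over the 14 chains with a count in both libraries, Nanopore CPM and Illumina CPM had a Spearman rho of 0.854, given as a description over genes that share both libraries, 7 of them at 1 or 2 Nanopore counts.

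**Figure D3:**
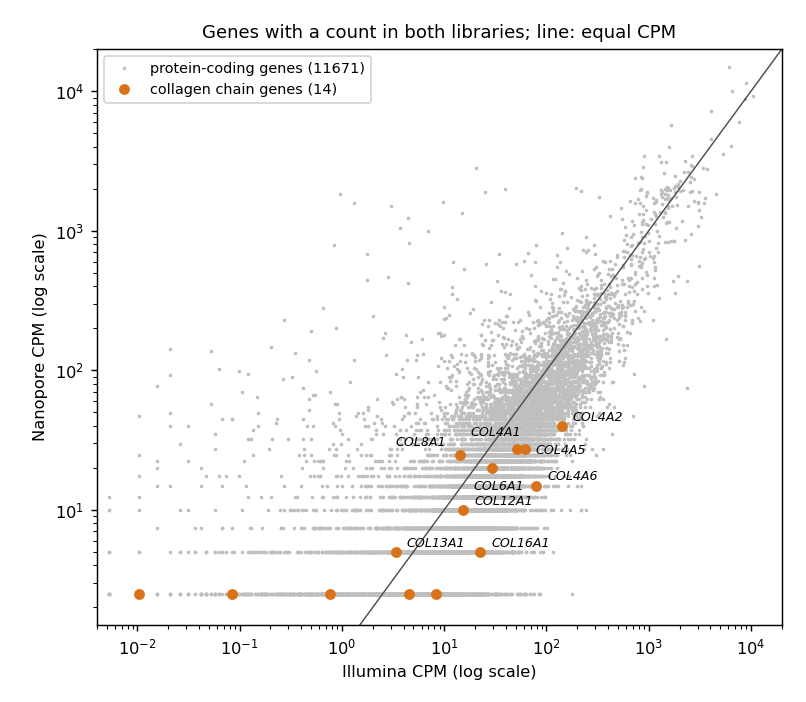
Nanopore CPM against Illumina CPM, both on log axes, for 11671 protein-coding genes (grey) and 14 collagen chain genes (orange) with a count in both libraries; the line marks equal CPM. Of the 14 collagen points 5 lie above the line, COL8A1 and COL13A1 and 3 of the points at 1 Nanopore count, and COL4A2 is the rightmost.

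Before transcript length was considered, 5 of the 10 collagen chains that could be tested were lower by Nanopore than by Illumina, and none was higher. Tested were the 12414 genes whose CPM averaged 5 or more over the libraries, with an exact two-sided binomial test that takes the totals as given and Benjamini-Hochberg adjustment over all 12414. Ratios are on the log2(CPM + 1) scale, Nanopore minus Illumina, so a negative value is higher by Illumina. Only 10 of the 43 collagen chain genes reached that mean. Among them COL7A1, COL16A1 and COL5A2 were below 5 CPM by Nanopore and reached it only through Illumina. The filter thus fixed the direction of their ratios in advance. Of these 10, 5 had an adjusted p under 0.05, all higher by Illumina, where the background was 27.2% of tested genes higher by Illumina and 20.2% higher by Nanopore. The 5 were COL4A2 (-1.81, adjusted p = 1.75e-09), COL4A6 (-2.35, 2.46e-07), COL7A1 (-4.65, 0.000444), COL4A5 (-1.15, 0.00849) and COL16A1 (-1.98, 0.0269).

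A call also needed a ratio of at least 4-fold, and 2 genes passed on the Illumina side, COL4A6 and COL7A1, against a background of 7.31%. By the fold alone, without the test, the same 2 chains stood on the Illumina side, beside 8.14% of tested genes. No chain passed on the Nanopore side, where 12.9% of all tested genes did. By the same exact binomial test at an unadjusted p under 0.05, none of the 10 tested chains was higher by Nanopore either. COL7A1 reached the test through its Illumina level alone. COL16A1 and COL5A2 were also below 5 CPM by Nanopore, at 4.96 and 2.48 CPM, beside 22.6 and 8.29 CPM by Illumina. COL7A1 had no Nanopore count where equal CPM would have given 9.75, and its ratio depends on the pseudocount. Set against 3 Nanopore counts, its Illumina level was at least 3.25-fold higher, which is below the 4-fold line. The other 5 tested chains did not pass the test: COL4A1 at -0.90 (adjusted p = 0.0577), COL12A1 at -0.58 (0.648), COL6A1 at -0.54 (0.461), COL5A2 at -1.42 (0.427) and COL8A1 at 0.75 (0.229). The median of the 10 ratios was -1.28 and 9 were negative. Over all tested genes the median was -0.42 and 63.2% were negative. Over the 5001 tested genes whose exonic length lay in the range of the 10 chains, 5536 to 19271 bases, the median was -0.82, 80.0% were negative and 10.6% were called higher by Illumina. Among genes that overlap no other gene, where 3 chains were tested, the chains' median was -0.54, above the -0.66 of all genes.

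Dividing Illumina counts by length moved these ratios. The canonical transcripts of the 10 chains were 4203 bases (COL6A1) to 11725 bases (COL12A1) long. When Illumina counts were divided by the canonical length, a scale chosen after the data were seen, the median of the 10 turned to 0.55, beside 0.48 for all tested genes. None of the 10 was then called higher by Illumina and COL8A1 was called higher by Nanopore (ratio 2.36, adjusted p = 7.74e-05), against 2.53% and 15.6% of the 12350 genes tested on that scale. With the union exonic length the median was 0.68, beside 0.42 for all tested genes, and COL8A1 again was the only chain called (2.33, adjusted p = 9.26e-05), against 3.09% of genes called higher by Illumina and 15.1% by Nanopore. With the mean transcript length it stayed negative, at -0.33 beside 0.07, and no chain was called in either direction, against 3.4% and 13.5% of genes. COL8A1 still had an adjusted p of 0.00787 there, at a ratio of 1.60.

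Single chains changed sides with the choice of length. COL4A2 stood at -1.81 undivided, at 0.96 by union exonic length (adjusted p = 0.0427), at -1.31 by mean transcript length (0.000108) and at 0.21 by canonical length (0.784). Its union of exons is 19271 bases, its canonical transcript 6446 and its mean transcript 1704. COL4A1 went from -0.90 to 1.42 by union length (adjusted p = 0.0124) and 1.09 by canonical length (0.0600). COL4A6 lost its call under each length, at -0.61 by union, -0.56 by mean and -0.30 by canonical length, with adjusted p from 0.513 to 0.910. COL7A1, whose ratio cannot be positive at 0 Nanopore counts, had an adjusted p from 0.0625 to 0.562 under the 3 lengths. COL12A1, with the longest canonical transcript of the 10, went to 1.85 by that length (adjusted p = 0.0477). Which length describes the RNA strands in these cells was not tested.

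**Figure D4:**
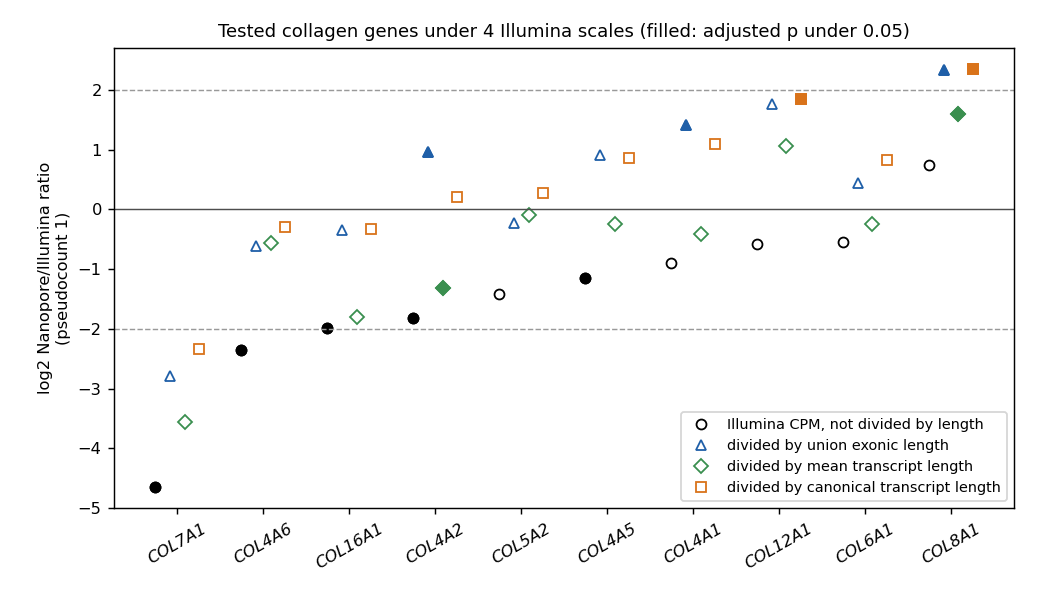
Log2 ratio of Nanopore over Illumina (y axis, pseudocount 1) of the 10 tested collagen chain genes (x axis) with Illumina counts undivided (circles) and divided by 3 measures of length; filled symbols have an adjusted p under 0.05 and dashed lines mark 4-fold. Undivided values of 9 genes lie below 0, and COL8A1 stays above 0 on every scale; the place of COL7A1, at 0 Nanopore counts, is set by the pseudocount.

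Within each head-to-head pair the split of counts was taken inside 1 library, where no scaling between libraries is needed. In the COL4A1 and COL4A2 pair on chromosome 13, COL4A1 took 11 of 27 Nanopore counts (40.7%, interval 22.4 to 61.2). By Illumina it took 26.4% of the pair's level by canonical length and 26.7% of its counts (interval 26.2 to 27.1), both inside the Nanopore interval. In the COL4A5 and COL4A6 pair on chromosome X, COL4A5 took 11 of 17 Nanopore counts (64.7%, interval 38.3 to 85.8). Its Illumina share was 44.1% by canonical length, 59.2% by mean transcript length and 37.6% by union exonic length, of which only the last was outside that interval. In the COL4A3 and COL4A4 pair on chromosome 2, neither gene had a Nanopore count, and all 146 Illumina counts were on COL4A4, so that COL4A3 had at most 2.49% of them. For comparison, COL6A1 and COL6A2 lie in tandem on chromosome 21, and COL6A1 took 8 of 9 Nanopore counts (88.9%, interval 51.8 to 99.7) and 84.2% of the pair's Illumina level by canonical length. Each platform thus put COL4A2 above COL4A1 and COL6A1 above COL6A2 in its counts. For COL4A1 and COL4A2 the Nanopore interval includes equal shares, so that order rests on the Illumina library. For COL4A5 and COL4A6 the Nanopore interval includes equal shares too, and the Illumina order turned with the length used, so no order is given.

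**Figure D5:**
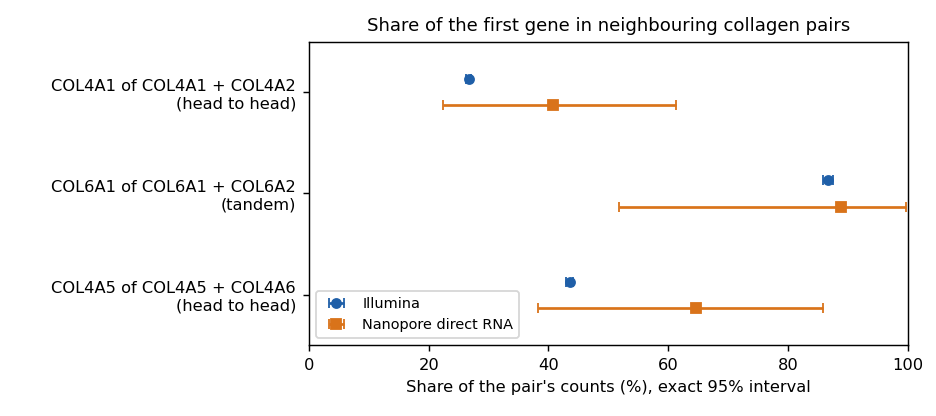
Share of the first gene in the counts of 3 neighbouring collagen pairs (x axis, percent of the pair's counts, undivided by length), with exact 95% intervals; circles are Illumina and squares Nanopore, 1 library each. The Illumina points at 26.7%, 86.7% and 43.6% all lie within the Nanopore intervals.

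Some collagen genes share their place with other genes. The bodies of 26 of the 43 overlap another gene on either strand, among them 7 of the 10 tested. COL4A1 and COL4A2 themselves overlap by 1346 bases in GENCODE. Within COL4A2, on the opposite strand, COL4A2-AS1 (chr13:110502575-110508179, a long noncoding RNA) had 7 Nanopore counts and 0 Illumina counts, beside 16 and 27249 for COL4A2, and 81 exonic bases are common to both. PEF1-AS1, opposite the end of COL16A1 with 117 common exonic bases, had 4 Nanopore and 24 Illumina counts, where COL16A1 had 2 and 4326. SLC19A1, a folate transporter gene opposite COL18A1 with 1563 common exonic bases, had 3 and 5587, where COL18A1 had 0 and 861. COL9A3 and COL19A1, each with 1 Nanopore count and at most 2 Illumina counts, lie opposite TCFL5 (7 and 2324) and LMBRD1 (13 and 3507). Whether counting used the strand is not given in the sources used here, so reads of these pairs may have been counted for either gene. COL7A1 overlaps only the microRNA gene MIR711.

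Genes that modify, fold, cut and cross-link collagen chains were mostly expressed, and several of them far above the chains. Of 38 such genes, 29 had a Nanopore count and 37 an Illumina count. Of the 28 tested, 3 were higher by Nanopore and 14 by Illumina at an adjusted p under 0.05, with a median ratio of -0.98. Over all tested genes these were 20.2% and 27.2%, with a median of -0.42. At 4-fold, P4HA3 was called higher by Nanopore, and COLGALT1 and KLHL12 higher by Illumina. Of all tested genes, 12.9% were called higher by Nanopore and 7.31% higher by Illumina. Among the proline and lysine hydroxylation genes, PPIB, a prolyl isomerase that helps collagen fold, was at 970 TPM and P4HB, the shared subunit of prolyl 4-hydroxylase, at 325 TPM by canonical length, with 114 and 96 Nanopore counts. P4HA3, a catalytic subunit of that enzyme, had 13 Nanopore and 1100 Illumina counts (ratio 2.30, adjusted p = 1.07e-05), and was called under each of the 3 length divisions too, but not with a pseudocount of 5 CPM (1.79). SERPINH1, the collagen chaperone, was at 280 TPM and FKBP10, a prolyl isomerase, at 41.8 TPM, with 68 and 11 Nanopore counts. COLGALT1, which adds galactose to hydroxylysine, had 17 Nanopore and 42875 Illumina counts (-2.38, adjusted p = 1.19e-19), with a ratio of -1.15 by canonical length, while its relative COLGALT2 had 0 and 45. KLHL12, part of a ubiquitin ligase that enlarges the coats which export collagen, had 3 and 9507 (-2.58, adjusted p = 3.01e-05).

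Outside the cell, BMP1, which trims the ends of fibrillar chains, was at 20.6 TPM with 6 Nanopore counts, and PCOLCE2, an enhancer of that step, at 4.50 TPM with 0. Of the enzymes that cross-link collagen, LOXL2 was at 35.1 TPM and LOX at 6.03 TPM, with 13 and 25 Nanopore counts. The collagen receptor gene DDR1 had 2 Nanopore and 10227 Illumina counts and was called higher by Illumina (-3.19, adjusted p = 1.32e-06), and MRC2, an uptake receptor, had 3 and 4586. At 4.96 CPM by Nanopore, DDR1 reached the test only through its Illumina level, which fixed that direction. By the same exact binomial test its ratio was -1.50 by union exonic length (adjusted p = 0.179). It was -1.92 by canonical length (0.0401) and -3.15 by mean transcript length (2.45e-06). Of 12 partners of type IV collagen in the basement membrane, 9 had a Nanopore count and 8 were tested, of which 1 was higher by Nanopore and 4 by Illumina at an adjusted p under 0.05. Of all tested genes, 20.2% were higher by Nanopore and 27.2% by Illumina at that threshold. The median ratio of the 8 partners was -1.24, beside the same -0.42 of all tested genes. LAMB1 and LAMC1, chains of laminin, were at 79.2 and 44.1 TPM, with 37 and 43 Nanopore counts. LAMB2, another laminin chain, was the only partner called (4 and 9405 counts, -2.20, adjusted p = 0.000168). NID1, a linker of laminin and type IV collagen, and ADAMTS2, a procollagen protease, were at 0 in both libraries. Of the 38 genes tested over the 3 lists, 4 were called at 4-fold higher by Illumina and 1 higher by Nanopore. Over all tested genes these shares were 7.31% and 12.9%. By canonical length the calls were 0 and 6, beside 2.53% and 15.6% of all tested genes. By union exonic length they were 1 (KLHL12) and 5, beside 3.09% and 15.1%. By mean transcript length they were 2 (DDR1 and LAMB2) and 2, beside 3.4% and 13.5%.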

How the data were processed

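The authors deposited raw gene counts of 1 Nanopore direct RNA library and 1 Illumina library, each in a single column per the file headers. Per the submitters' processing notes, minimap2 2.11-r797, HISAT2 2.1.0 and featureCounts were used with hg38. The annotation release, strand setting and treatment of reads on several genes are not given in the sources used here. Per the file headers, the Nanopore column carries an unexplained suffix, and whether those reads were corrected with short reads is not stated. Correction would make the libraries dependent.

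Identifiers were matched to GENCODE 44 on hg38 (58207 of 58735; 528 not found). CPM are counts over the library total of 403235 or 191741714. With no replicates no dispersion could be estimated, so counts were compared by a two-sided exact binomial test conditional on the totals (scipy 1.17.1), doubling the smaller tail, with Benjamini-Hochberg adjustment over the 12414 genes averaging 5 CPM or more. The test was also run on simulated counts, drawn from the Illumina abundances with counting error only. Since these counts follow the test's own assumption, that run cannot show how the test behaves with platform, length or amplification effects. Calls needed an adjusted p under 0.05 and 4-fold. Intervals are exact (Clopper-Pearson, 95%) and cover counting error only. They and the test take each read as an independent molecule, which amplified reads are not. Illumina intervals may therefore be too narrow and p-values too small. TPM are Illumina counts per length. TMM scaling used edgeR 4.0.16 in R 4.3.3. Promoter sequences came from RefSeq (GRCh38.p14), with entries for 31 of the 43 genes.

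The members, the types and the gene lists were chosen with earlier results of these data known. Named with values were collagen genes at a mean of at least 5 CPM, with at least 3 Nanopore counts, or in a head-to-head pair within 2000 bases. Of the other lists, those called at 4-fold and the 2 highest per length in each role were named, and of genes overlapping a named member those with at least 3 Nanopore counts. Other collagen genes and overlapping genes given with values were chosen after their values were seen. Alternatives covered scaling, length, pseudocount, filter on low counts, minimum count and genes overlapping no other gene. Division by canonical length was added after the data were seen. The grouping follows the titles in the labels.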

Additional observations from a re-analysis of the deposited data

How the results depend on the processing

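TMM and median-ratio scaling, which shift ratios by at most 0.09 and 0.13 on the log2 scale and that of COL7A1 not at all, changed the direction, the side of adjusted p 0.05 or the 4-fold call of none of the 15 named genes tested. Pseudocounts of 0.1 and 5 CPM left direction and p, but at 0.1 COL16A1 (-2.16) was called too, making 3 chains, and at 5 P4HA3 (1.79) and LAMB2 (-1.86) were not called. Dividing Illumina counts by length changed directions. The median of the tested chains was -1.28 and became 0.68 by union exonic, 0.55 by canonical and -0.33 by mean transcript length, -1.17 with median-ratio scaling, -1.44 and -0.94 with pseudocounts of 0.1 and 5 CPM, -1.02, -1.15 and -0.52 with a mean of at least 1 CPM, at least 20 CPM and no filter, and -0.54 among genes that overlap no other gene. The medians of all tested genes in the same order were -0.42, 0.42, 0.48, 0.07, -0.29, -0.43, -0.35, -0.20, -0.46, -0.11 and -0.66, so that the chains lay above all genes by union and canonical length and among genes that overlap no other gene. By union length the ratios of COL4A2 (0.96), COL4A5 (0.91), COL4A1 (1.42), COL6A1 (0.45) and COL12A1 (1.77) turned positive. By mean transcript length only COL12A1 (1.06) did. By canonical length COL4A2 (0.21), COL4A5 (0.86), COL4A1 (1.09), COL6A1 (0.82), COL12A1 (1.85) and COL5A2 (0.27) did. The 2 chains called higher by Illumina became 0 under each of the 3 lengths, 1 (COL4A6) at a mean of at least 20 CPM, and 0 among genes that overlap no other gene, where 3 chains were tested. The 0 chains called higher by Nanopore became 1 (COL8A1) by union and canonical length. Detection fell from 16 chains to 7 at 3 counts and 4 at 10. The Illumina share of COL4A1 in its pair was 32.4% by union length, and that of COL4A5 37.6% by union and 59.2% by mean length. Beyond what the length divisions do by construction, the cause was not tested. No paired analysis was possible because each platform has 1 library, and for the same reason no library could be left out. The Nanopore depth limits every chain below about 7.44 CPM.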

Other observations

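COL17A1, a collagen chain of hemidesmosomes that the rule left out, had 36 Nanopore counts, or 89.3 CPM (exact interval 62.5 to 123.6), and 41413 Illumina counts, or 216 CPM and 59.6 TPM by canonical length. Its level was above that of COL4A2, the highest of the 43 chains, on each of these scales. Its log2 ratio was -1.27, near the median of the tested chains.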
